A study of Mus musculus with 3 samples.

Results

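Nuclear hormone receptors are transcription factors, many of which are switched by small fat-soluble ligands such as vitamin D, retinoic acid, thyroid hormone, bile acids, fatty acids and steroids. A list of 41 mouse genes of this family was examined in sorted cells of the small intestine, out of 24098 gene symbols with a value. The members are a list of gene names, with no cut on level or ratio, and all 41 were found among the deposited transcripts. The list leaves out some relatives, among them Hnf4a, Hnf4g and the Nr4a genes, whose values are given beside it near the end.

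Messenger RNA had been measured in 3 pooled libraries of epithelial cells sorted by flow cytometry from the upper small intestine of C57BL/6 mice, each group being a single library. GIP-GFP is made of cells of a reporter line that express GIP, the incretin hormone of the duodenum. Ngn3-TOMATO and Ngn3-negative come from male mice in which Ngn3-Cre removed the LoxP-STOP-LoxP block of a tomato reporter at ROSA26, so that a cell is red when it or its progenitor expressed Ngn3, the transcription factor that commits cells to the enteroendocrine fate. Ngn3-TOMATO holds the red cells and Ngn3-negative (labelled Ngn3-neg) the others, both after removal of cells stained for CD45, a blood cell marker. No such removal, and no sex, is stated for GIP-GFP. All groups share the strain, the villus fraction and the collagenase step, and neither ages nor the number of mice in a pool are given in the sources used here. GIP-GFP came from another mouse line than the tomato sorts, so line and cell type cannot be told apart in any comparison with it. GIP-GFP and Ngn3-TOMATO are called the reporter libraries below. Since a pooled library has no replicate, the groups were not tested against each other, no p-value is printed, and each difference below describes these libraries.

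Depth, as read bases on the transcripts, was 592 Mb for GIP-GFP, 1380 Mb for Ngn3-TOMATO and 1030 Mb for Ngn3-negative. The sorts were read first by genes that define cell types. The summed level of 10 enteroendocrine markers was 278400 scaled FPKM in GIP-GFP cells, 87280 in Ngn3-TOMATO cells and 1553 in Ngn3-negative cells, and Gip alone took 23.2% of the GIP-GFP total. Scaled FPKM is the deposited FPKM, a per-length level, with the same divisor for every library, set to bring their mean total to 1000000. The 10 enterocyte markers, for absorptive cells, summed to 10960, 7893 and 38540 in the same order, with none at 0. Goblet cell markers were highest in Ngn3-TOMATO cells (6 genes, 5354, 171000 and 30920), as were Paneth cell markers (5 genes, 2271, 26840 and 4761). Lymphocyte markers were highest in GIP-GFP (8 genes, 379, 63.5 and 158). Markers of pancreatic acinar cells summed to 4.98, 6.12 and 178 over 6 genes, and 2, 2 and 1 of these were listed at 0. In such pooled RNA, fewer cells of a type and less RNA per cell cannot be told apart.

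The receptors for vitamin D, retinoic acid, thyroid hormone, bile acids, oxysterols, fatty acids and xenobiotics bind DNA mostly as a pair with a retinoid X receptor, or RXR, at copies of a short half-site whose letters are AGGTCA. Steroid receptors pair with themselves, the Rev-erb, ROR and estrogen-related receptors and LRH-1 can bind as single molecules, and Nr0b1 and Nr0b2 lack the DNA-binding domain. Without ligand several RXR partners hold corepressors at the gene, and with ligand they recruit coactivators. In the intestine the bile acid, fatty acid, vitamin D and xenobiotic sensors are known for control of absorption, transport and detoxification in enterocytes. Among the members, Nr1h4, the bile acid receptor, had a summed level that was close in all 3 libraries. Nr1d2, a clock receptor, was lowest in GIP-GFP, and Vdr was the most abundant member. The promoters of these 3 are shown as examples and do not stand for the list. Each runs from 250 bases before to 50 bases after the RefSeq start site on GRCm38.p6, read 5′ to 3′ on the gene's strand, which is the minus strand for all of them. Capitals mark the half-site AGGTCA in either orientation.
Nr1h4 (chr10:89506609-89506908): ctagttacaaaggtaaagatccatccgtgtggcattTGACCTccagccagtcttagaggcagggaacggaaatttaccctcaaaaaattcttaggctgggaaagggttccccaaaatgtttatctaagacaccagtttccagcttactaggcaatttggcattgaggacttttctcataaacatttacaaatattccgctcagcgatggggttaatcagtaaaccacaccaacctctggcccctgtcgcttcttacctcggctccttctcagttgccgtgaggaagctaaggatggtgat
Nr1d2 (chr14:18239057-18239356): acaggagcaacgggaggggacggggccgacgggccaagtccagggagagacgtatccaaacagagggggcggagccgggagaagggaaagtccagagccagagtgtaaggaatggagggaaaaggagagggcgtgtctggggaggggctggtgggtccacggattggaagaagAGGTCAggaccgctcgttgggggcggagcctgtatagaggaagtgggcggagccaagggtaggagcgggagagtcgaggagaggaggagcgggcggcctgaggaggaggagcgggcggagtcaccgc
Vdr (chr15:97908247-97908546): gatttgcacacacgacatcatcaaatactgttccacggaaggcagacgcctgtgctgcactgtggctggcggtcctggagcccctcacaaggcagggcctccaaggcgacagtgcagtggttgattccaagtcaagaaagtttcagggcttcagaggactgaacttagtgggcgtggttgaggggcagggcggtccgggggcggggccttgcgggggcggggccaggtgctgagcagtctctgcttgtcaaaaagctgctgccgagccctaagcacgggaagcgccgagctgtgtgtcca

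In all 3 of these the RefSeq start matched the start of a deposited transcript with 0 bases between them. The half-site began 214 bases before the start of Nr1h4, in the reverse orientation, and 77 bases before that of Nr1d2, while these letters are not in the Vdr window. RefSeq promoters of 300 bases were on hand for 38 of the 41 genes, 58 promoters in all, and 12 of these (20.7%), of 11 genes, held the half-site on either strand, against 16.3% of all 32851 promoters. The E-box CACGTG, a site of clock factors, was in 6 of the 58 (10.3%), of 5 genes, against 7.15% of all, and 2 of the 6 are overlapping windows of Rara that hold the same copy. The letters TTATGTAA, a site of other clock factors, were in 0 of the 58 and in 0.938% of all promoters. A match of letters is a description and not a bound site.

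Of the 41 genes, 25 reached 10 scaled FPKM in at least 1 library, 5 more reached 1, 7 stayed below 1 everywhere and 4 were listed at 0 in all libraries. The number at 10 or more was 20 in GIP-GFP cells, 22 in Ngn3-TOMATO cells and 24 in Ngn3-negative cells, and the number at 100 or more was 1, 4 and 8. Of the 25 abundant members, 22 were highest in Ngn3-negative. The exceptions were Nr1h4 and Nr2f2, highest in GIP-GFP, and Nr2c2, highest in Ngn3-TOMATO. With libraries scaled to equal totals, Nr1h4 in GIP-GFP and Nr2c2 in Ngn3-TOMATO were below Ngn3-negative, at log2 ratios of -0.10 and -0.07. The lowest value was in GIP-GFP for 17 of the 25, in Ngn3-TOMATO for 6 and in Ngn3-negative for 2. The order of the libraries was not counted over all genes, so these counts have no background of their own. Among all genes compared with Ngn3-negative, 48.2% had a log2 ratio below 0 in Ngn3-TOMATO and 46.8% in GIP-GFP. The summed level of all members was 1018 in GIP-GFP cells, 1145 in Ngn3-TOMATO cells and 1955 in Ngn3-negative cells. Enterocyte markers were also highest in Ngn3-negative, as were 6 stem and progenitor markers, which summed to 784, 1188 and 3008, with median log2 ratios to Ngn3-negative of -1.99 in GIP-GFP and -1.17 in Ngn3-TOMATO. The part of either cell type in these differences was not tested.

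**Figure D1:**
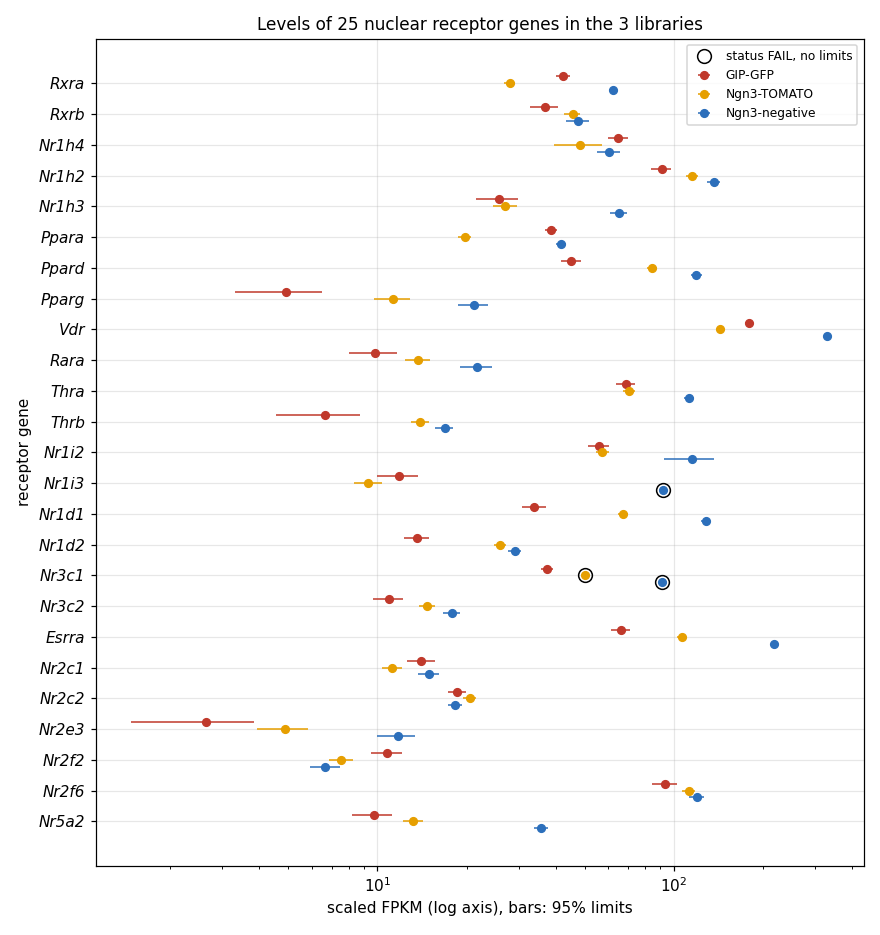
Level of each of the 25 receptor genes that reached 10 scaled FPKM (log axis) in the 3 libraries, with 95% limits from the deposited FPKM limits; a black ring marks a value whose quantification had status FAIL and no usable limits. Blue points (Ngn3-negative) lie farthest right for 22 of the 25 genes, an order not counted over all genes. Vdr is the most abundant in every library.

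Within a library the levels can be ranked because they are per length. Vdr ranked first in all 3. In Ngn3-negative it was followed by Esrra, at 218 (limits 212 to 224), and then by 6 genes between 113 and 136, Nr1h2, Nr1d1, Nr2f6, Ppard, Nr1i2 and Thra, whose neighbours in that order have overlapping limits. In Ngn3-TOMATO the next were Nr1h2, Nr2f6 and Esrra, at 115, 112 and 106, again with overlapping limits between neighbours. In GIP-GFP they were Nr2f6 at 93.6 and Nr1h2 at 90.9, also overlapping.

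Against Ngn3-negative, 9 of the 30 members that passed the filter were at least 2-fold lower in Ngn3-TOMATO, beside 9.94% of all 13424 genes that did, and 2 were at least 2-fold higher, beside 19.2% of all genes. The higher ones were Rarg and Rora, and Rora was listed at 0 in Ngn3-negative. To pass the filter a gene had to reach 1 scaled FPKM in either library compared, which 29 of the 30 members did in both. Rora passed only through Ngn3-TOMATO, where it was at 1.05, so its call follows from the filter. Folds are log2 ratios after a pseudocount of 1 was added to both values, which understates the difference of low genes. The median log2 ratio was -0.64 over these members and 0.03 over all genes, and 25 of 30 ratios were below 0, beside 48.2% of all genes. GIP-GFP set against Ngn3-negative had 14 of 29 members at least 2-fold lower, beside 13.7% of all 13448 genes, and 1, Rarg, higher, beside 21.0%. The medians were -0.87 for members and 0.07 for all genes, with 24 of 29 ratios below 0, beside 46.8%. Between the reporter libraries most members were within 2-fold (28 of 30), as were most genes (11412 of 13715). Of the 24 abundant members with an interval there, 14 had it below 0 and 7 above 0, a split that was not counted over all genes. GIP-GFP was at least 2-fold lower than Ngn3-TOMATO for 2 of 30 members, Pparg and Rora, beside 8.76% of all 13715 genes, and higher for 0, beside 8.03%. Here too Rora, listed at 0 in GIP-GFP, passed the filter only through Ngn3-TOMATO. A transcript at its locus without a matched symbol, not counted for it, stood at 0.805 in GIP-GFP. The medians were -0.28 and 0.08, with 20 of 30 ratios below 0, beside 43.1%. Past 4-fold, 1 member, Nr1i3, was lower in each reporter library than in Ngn3-negative, beside 1.88% of genes for Ngn3-TOMATO and 2.74% for GIP-GFP, and 0 were higher, beside 8.82% and 10.1%. Between the reporter libraries 0 members were past 4-fold, beside 3.20% of genes lower and 2.08% higher. Some of these calls sit near 2-fold and fell within it in at least 1 other setting, namely Esrra, Nr2e3 and Ppara for Ngn3-TOMATO against Ngn3-negative, Nr1d2, Nr1i2, Rara and Thrb for GIP-GFP against Ngn3-negative, and Pparg between the reporter libraries. The comparisons share libraries and are not independent of each other. With libraries scaled to equal totals, the members at least 2-fold lower numbered 13 of 29 and 15 of 29 against Ngn3-negative, beside 14.7% and 17.9% of all genes. That scaling shifted the all-gene medians by -0.23 for Ngn3-TOMATO and -0.21 for GIP-GFP, and the share of all differing genes that were higher was then 53.1% and 50.9%, against 65.9% and 60.5% as deposited. Among members that share was 7.14% for Ngn3-TOMATO, against 18.2% as deposited.

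**Figure D2:**
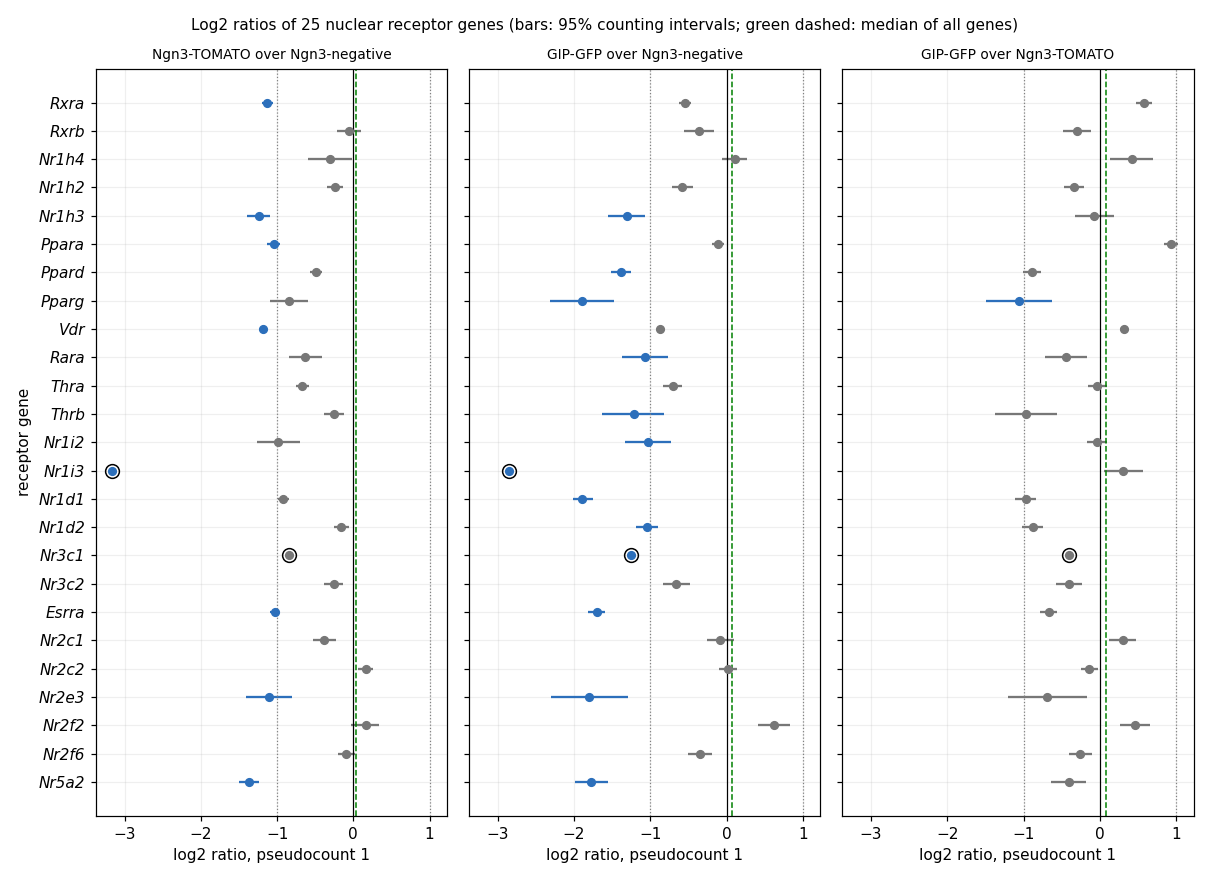
Log2 ratio of each of the 25 receptor genes in the 3 comparisons, with 95% counting intervals; blue marks genes at least 2-fold lower, dotted lines 2-fold, the green line the median of all genes, and a black ring a ratio without an interval. Most points lie left of 0 in the first 2 panels, and Ppara lies close to the 2-fold line on the higher side in the third (0.93).

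The common partners came first. Rxra, the main RXR of epithelia, was at 42.3 scaled FPKM in GIP-GFP cells, 28.0 in Ngn3-TOMATO cells and 62.2 in Ngn3-negative cells. Its log2 ratio to Ngn3-negative was -1.13 (95% counting interval -1.20 to -1.05) in Ngn3-TOMATO and -0.55 (-0.63 to -0.46) in GIP-GFP, so it was lowest in Ngn3-TOMATO and intermediate in GIP-GFP. Rxrb was at 36.8, 45.5 and 47.5 in the same order of libraries, and its interval against Ngn3-negative held 0 for Ngn3-TOMATO. The genes whose values the text returns to most lie, on mm10, at chr15:97854427-97908296 (Vdr, minus strand), chr10:89454234-89506658 (Nr1h4, minus strand), chr15:85735564-85806851 (Ppara, plus strand), chr11:98767935-98775242 (Nr1d1, minus strand) and chr19:6910977-6921808 (Esrra, minus strand), as spans of their most abundant transcript. Rxrg, known from muscle and brain, was listed at 0 in all libraries.

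Sensors of bile acids and sterols differed in how far apart the libraries were. Nr1h4, the bile acid receptor FXR, stood at 64.9 in GIP-GFP cells (limits 60.1 to 69.8), 48.3 in Ngn3-TOMATO cells (39.3 to 57.4) and 60.2 in Ngn3-negative cells (54.8 to 65.6). The 3 values lie close together, and the log2 ratio of GIP-GFP to Ngn3-negative was 0.11 (-0.06 to 0.27), which turned to -0.10 under equal totals. With only the most abundant transcript of the gene it was 1.06, and Ngn3-TOMATO to Ngn3-negative was -1.17, since the libraries differed in the models that took the reads. Nr1h3, an oxysterol receptor, was at 25.7, 27.0 and 65.3, lower than Ngn3-negative by 2.48-fold in GIP-GFP and 2.37-fold in Ngn3-TOMATO. The related Nr1h2, found in most tissues, was at 90.9, 115 and 136, with differences below 2-fold in every comparison. Nr0b2, a receptor without a DNA-binding domain that FXR induces, was low, at 2.60, 2.24 and 6.82.

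The receptors for fatty acids split by member. Ppara, which drives fatty acid oxidation, was at 38.5 in GIP-GFP cells (limits 36.7 to 40.3), 19.7 in Ngn3-TOMATO cells (18.8 to 20.7) and 41.7 in Ngn3-negative cells (40.2 to 43.2). GIP-GFP and Ngn3-negative lay close together, and Ngn3-TOMATO was lower than both. The log2 ratio was 0.93 (0.84 to 1.02) for GIP-GFP over Ngn3-TOMATO and -0.11 (-0.19 to -0.03) for GIP-GFP over Ngn3-negative, and the latter turned to 0.06 with the most abundant transcript alone. Ppard, the broadly expressed member, had the opposite order among reporter libraries, at 45.0, 84.4 and 119, and was 2.61-fold lower in GIP-GFP than in Ngn3-negative. Pparg, known from fat cells and from differentiated gut epithelium, was at 4.90, 11.3 and 21.1. It was 3.74-fold lower in GIP-GFP than in Ngn3-negative and 2.09-fold lower than in Ngn3-TOMATO, where the interval of the log2 ratio was -1.49 to -0.63. With a pseudocount of 5 the latter log2 ratio was -0.72, within 2-fold.

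Among receptors for vitamins and thyroid hormone, Vdr, the vitamin D receptor that controls calcium uptake in the duodenum, was at 179 in GIP-GFP cells (limits 174 to 184), 144 in Ngn3-TOMATO cells (141 to 146) and 327 in Ngn3-negative cells (323 to 332). It was lower than in Ngn3-negative by 1.82-fold in GIP-GFP and 2.27-fold in Ngn3-TOMATO, and its limits do not overlap between any of the libraries. Of the retinoic acid receptors, Rara was at 9.80, 13.7 and 21.7. Rarg was low but went the other way, at 3.54 and 4.67 in the reporter libraries and 1.03 in Ngn3-negative, with log2 ratios of 1.16 (0.71 to 1.60) and 1.48 (1.15 to 1.81). Rarb stayed at or below 0.663. Thra, the main thyroid hormone receptor of the gut, was at 68.7, 70.6 and 113, nearly equal in the reporter libraries. Thrb was at 6.66, 14.0 and 16.9, lowest in GIP-GFP, where it was 2.33-fold below Ngn3-negative.

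Both xenobiotic sensors were highest in Ngn3-negative. Nr1i2, the pregnane X receptor that induces drug-metabolising enzymes, was at 55.8, 57.4 and 115. It was 2.04-fold lower in GIP-GFP and 1.98-fold lower in Ngn3-TOMATO. Nr1i3, the constitutive androstane receptor, showed the widest gap of any member, at 11.9, 9.33 and 91.8. Its quantification in Ngn3-negative had status FAIL, so that no interval can be given. Its log2 ratios of -2.85 and -3.17 became -1.55 and -1.87 with the most abundant transcript alone. In the annotation 3304 of its 4414 exonic bases are shared with Tomm40l on the other strand, and no source used here states that strand was kept in counting.

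The clock receptors repress or activate genes through the day. Nr1d1, a repressor also called Rev-erb alpha, was at 33.8 in GIP-GFP cells (limits 30.8 to 36.9), 67.2 in Ngn3-TOMATO cells (64.5 to 70.0) and 128 in Ngn3-negative cells (124 to 132). The limits of the 3 libraries do not overlap, and GIP-GFP was 1.96-fold below Ngn3-TOMATO and 3.70-fold below Ngn3-negative. Nr1d2, its close relative, was at 13.6, 25.95 and 29.1, again lowest in GIP-GFP, with a log2 ratio of -0.88 (-1.02 to -0.74) to Ngn3-TOMATO. Rora was at 1.05 in Ngn3-TOMATO and listed at 0 in the other 2 libraries, although a further transcript at its locus without a matched symbol stood at 0.805 in GIP-GFP. Rorb, a gene of retina and brain, did not exceed 0.00704. Hours of collection are not given in the sources used here, so hour and group cannot be told apart for these genes. Exons of Nr1d1 and Thra overlap on opposite strands by 263 bases, and reads there cannot be assigned without strand.

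Of the steroid receptors, Nr3c1, the glucocorticoid receptor, was at 37.3, 49.99 and 90.9. It had status FAIL in both tomato sorts, so its log2 ratio of -1.26 between GIP-GFP and Ngn3-negative has no interval. Nr3c2, the mineralocorticoid receptor, was at 10.9, 14.7 and 17.8. Esr1, Esr2 and Pgr, the receptors for estrogen and progesterone, were at or below 0.567 in each library. The estrogen-related receptor gene Esrra, a regulator of mitochondrial genes, was at 66.2 in GIP-GFP cells (limits 61.3 to 71.2), 106 in Ngn3-TOMATO cells (103 to 110) and 218 in Ngn3-negative cells (212 to 224). It was thus graded over the libraries without overlap, 3.26-fold and 2.04-fold below Ngn3-negative in GIP-GFP and Ngn3-TOMATO. Esrrg was at 9.56, 5.84 and 9.78, and Esrrb did not exceed 0.0771.

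The orphan receptors, which have no settled ligand, included genes that were near level between the sorts and others that were not. Nr2c2 was at 18.5, 20.5 and 18.2, and Nr2c1 at 14.1, 11.2 and 14.9. Nr2f6 was among the most abundant members at 93.6, 112 and 119. Each of these was within 2-fold in all comparisons. Nr2c2 shares 4590 of 14935 exonic bases with Mrps25 and Nr2f6 shares 1622 of 2983 with Ocel1, on the other strand. Nr2f2, also called COUP-TFII, was the member with the highest ratio of GIP-GFP to Ngn3-negative among the 25 abundant ones, at 10.8, 7.56 and 6.68, a log2 ratio of 0.62 (0.41 to 0.83). Nr5a2, or LRH-1, known for intestinal steroid synthesis and crypt renewal, was at 9.71, 13.2 and 35.7, and was 3.43-fold and 2.58-fold below Ngn3-negative in GIP-GFP and Ngn3-TOMATO. Nr2e3, known from photoreceptors, was at 2.65, 4.88 and 11.7. Nr6a1, the germ cell nuclear factor, was even at 9.51, 8.41 and 8.38. Nr2f1 did not exceed 0.361, and Nr2e1, Nr5a1 and Nr0b1 were listed at 0 in all libraries.

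The deposited transcript models give the receptors' values at a finer level, within which near-identical models share reads and their split is uncertain. Nr1h4 has 2 models with the same ends that differ by 12 bases in length. The shorter, uc007gsf.2, was at 57.6 scaled FPKM in GIP-GFP cells (limits 53.1 to 62.1), 11.5 in Ngn3-TOMATO cells (5.33 to 17.6) and 27.1 in Ngn3-negative cells (23.0 to 31.2). The longer, uc007gsg.2, was listed at 0 in GIP-GFP and stood at 30.5 in Ngn3-TOMATO cells (24.0 to 37.1) and 33.1 in Ngn3-negative cells (29.6 to 36.7). A further model that begins upstream, at 89533622 of chromosome 10, was at 7.33 and 6.36 in the reporter libraries and listed at 0 in Ngn3-negative. The gene's total was thus close over the libraries while the models differed.

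Nr1h2 shows how far such splits can move. Models of 1963 to 1981 bases took different places in each library: uc009gqc.1 held 44.1 in GIP-GFP and 0 in the others, uc009gqb.1 was at 44.1 in Ngn3-TOMATO and 19.9 in Ngn3-negative, and uc009gqa.1 held 59.2 in Ngn3-negative and 0 in the others. The model uc012fjr.1, with another start, was even, at 46.8, 53.1 and 56.9. Thra models ending at 98765111 and 98769006 of chromosome 11 kept a similar split, at 19.1 and 49.6 in GIP-GFP, 20.4 and 50.2 in Ngn3-TOMATO and 33.8 and 78.9 in Ngn3-negative. The Pparg model with the upstream start was at 3.11, 5.23 and 7.85 and the one with the start nearer the gene's end at 1.80, 6.08 and 13.2. Esrrg had its model with the downstream start at 8.44 in GIP-GFP cells, 2.89 in Ngn3-TOMATO cells and 4.08 in Ngn3-negative cells, and the one with the upstream start at 1.12, 2.96 and 5.70.

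**Figure D3:**
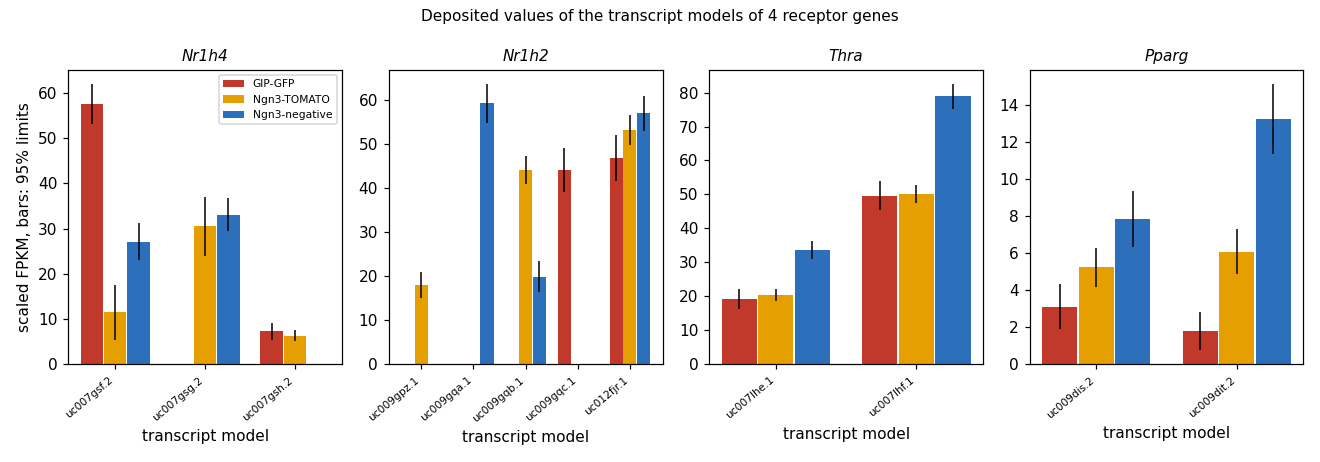
Scaled FPKM of the deposited transcript models of Nr1h4, Nr1h2, Thra and Pparg in the 3 libraries, with 95% limits. The shorter Nr1h4 model stands at 57.6 in GIP-GFP and 11.5 in Ngn3-TOMATO, while the longer one is at 0 and 30.5.

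The coregulators that receptors recruit were counted next. Of 11 coactivator genes 2 were at least 2-fold lower in each reporter library than in Ngn3-negative and 0 were higher, and the medians were 0.06 (Ngn3-TOMATO) and -0.03 (GIP-GFP). Among all genes 9.94% and 13.7% were lower and 19.2% and 21.0% higher. The lower ones were Ppargc1a (5.06, 7.87 and 29.2 scaled FPKM, in the order used above) and Ppargc1b (4.79, 5.59 and 15.2), partners of the PPAR and estrogen-related receptors in mitochondrial control. The corepressor gene Ncor1 was at 103, 96.4 and 113.

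Most, but not all, target genes of the bile acid, xenobiotic and vitamin D receptors were lower in both reporter libraries. All 5 bile acid receptor targets were at least 2-fold lower in GIP-GFP than in Ngn3-negative and 4 of 5 in Ngn3-TOMATO, with medians of -2.08 and -2.16. Among all genes 13.7% were lower and 21.0% higher in GIP-GFP, and 9.94% lower and 19.2% higher in Ngn3-TOMATO. The all-gene medians were 0.07 and 0.03. Fabp6, the ileal bile acid binding protein, was at 173, 182 and 820, and the bile acid exporter subunit Slc51a at 57.0, 56.7 and 273. Of 14 xenobiotic receptor targets 11 were lower and 1 higher in GIP-GFP, and 10 lower and 0 higher in Ngn3-TOMATO, with medians of -2.52 and -1.88. These counts stand beside the same shares of all genes. Cyp3a11, a drug-metabolising enzyme, was at 56.2, 88.9 and 515, and Cyp2b10 at 62.7, 48.6 and 341. The higher gene in GIP-GFP was the exporter gene Abcc3, named after its values were seen, with log2 ratios to Ngn3-negative of 1.27 in GIP-GFP and 0.68 in Ngn3-TOMATO. Its quantification in GIP-GFP had status FAIL, so the ratio of 1.27 has no interval. Among vitamin D receptor targets S100g, a calcium-binding protein of duodenal enterocytes, was at 88.0, 158 and 1188, and the calcium channel gene Trpv6 was low, at 0.106, 0.638 and 7.02, while the calcium pump gene Atp2b1 was at 77.8, 54.9 and 52.5. Enterocytes express many of these targets, and 10 enterocyte markers had medians of -1.97 in GIP-GFP and -2.31 in Ngn3-TOMATO. The part of cell composition in these target values was not tested.

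PPAR targets were lower in both reporter libraries by smaller medians, -1.08 in Ngn3-TOMATO cells (12 of 23 lower, 0 higher) and -0.74 in GIP-GFP (10 lower, 1 higher). Among all genes 9.94% were lower and 19.2% higher in Ngn3-TOMATO, and 13.7% lower and 21.0% higher in GIP-GFP. Fabp1, the most abundant, was at 2298, 1762 and 7719. Pdk4, a kinase that holds back glucose oxidation, departed from the list at 425 in GIP-GFP cells, 42.3 in Ngn3-TOMATO cells and 35.4 in Ngn3-negative cells. Between the reporter libraries 17 of 23 PPAR targets had log2 ratios above 0, with a median of 0.38 beside 0.08 for all genes. Of the 23, 2 were at least 2-fold higher in GIP-GFP, a share near the 8.03% of all genes. These were Pdk4 and Acadl, an enzyme of fatty acid oxidation (316, 121 and 175).

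Of 10 liver X receptor targets 2 were higher and 3 lower in Ngn3-TOMATO, beside 19.2% and 9.94% of all genes, and 3 were higher and 2 lower in GIP-GFP, beside 21.0% and 13.7%, so these counts are near the background except for the lower ones in Ngn3-TOMATO. The sterol exporter subunit Abcg5 was at 71.2, 116 and 388, and Mylip, which degrades the LDL receptor, at 22.0, 11.9 and 3.27. Genes of retinoid handling were split as well. Bco1, which cleaves beta-carotene, was at 53.7, 33.3 and 3.20, and Aldh1a1, which makes retinoic acid, at 122, 137 and 559. In all 8 were measured against Ngn3-negative, of which 3 were higher and 3 lower in Ngn3-TOMATO, and 2 higher and 5 lower in GIP-GFP, beside the same shares of all genes.

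**Figure D4:**
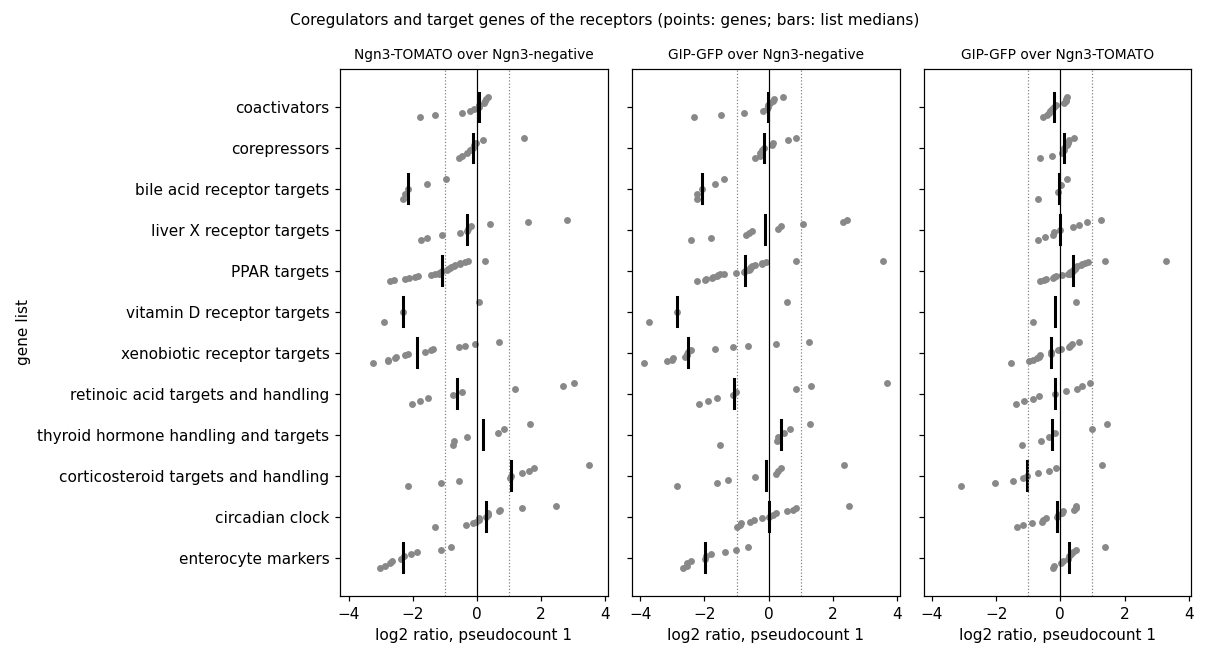
Log2 ratios of coregulator, target and enterocyte marker genes in the 3 comparisons; each point is a gene, each bar the median of its list, and dotted lines mark 2-fold. Bile acid, vitamin D and xenobiotic targets have medians of -1.88 or lower against Ngn3-negative in the first 2 panels. Between the reporter libraries their medians are -0.03, -0.17 and -0.29, the vitamin D one over 2 genes only.

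Hormone-responsive genes outside absorption had other patterns. Of 9 measured genes of corticosteroid response and handling 6 were higher and 2 lower in Ngn3-TOMATO than in Ngn3-negative, beside 19.2% and 9.94% of all genes. In GIP-GFP 1 of 8 was higher and 3 lower than in Ngn3-negative, beside 21.0% and 13.7% of all genes, with a median of -0.09. Against Ngn3-TOMATO, 5 of 9 were lower and 1 higher in GIP-GFP, beside 8.76% and 8.03% of all genes. Dusp1, which is also an immediate early gene, was at 70.9, 616 and 54.0. Sgk1, a kinase induced by corticosteroids, was at 18.3, 30.1 and 138, and Fkbp5, a chaperone induced by glucocorticoids, at 86.0, 34.3 and 15.9. Of the thyroid hormone genes, the deiodinase gene Dio1 was at 21.5, 50.7 and 62.5, and was lower by at least 2-fold in GIP-GFP than in either tomato sort. Of the 6 measured genes of that list, 5 had log2 ratios of GIP-GFP to Ngn3-negative above 0, beside 7153 of 13448 genes in all. Only 1 of them was at least 2-fold higher. The median of that list was 0.38, beside 0.07 for all genes. For Ngn3-TOMATO to Ngn3-negative, 3 of the 6 were above 0 and 3 below. Of 13 clock genes measured, 12 were within 2-fold between GIP-GFP and Ngn3-negative, beside 8771 of 13448 genes in all. Between Ngn3-TOMATO and Ngn3-negative 10 of 13 were, beside 9506 of 13424, a share close to that of all genes. The repressor gene Cry2 was at 36.1, 34.7 and 5.52, Clock at 37.6, 39.3 and 37.4, and Arntl, whose transcription Rev-erb receptors repress, at 16.5, 24.6 and 31.1.

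Relatives outside the list were set beside it. Hnf4g, an enterocyte factor, was at 116, 111 and 399, and Hnf4a at 269, 367 and 485. Of the immediate early receptors, Nr4a1 and Nr4a2 differed in the opposite sense, at 89.0, 430 and 14.3 and at 229, 65.6 and 7.48. Nr4a3, named after its values were seen, was low, at 0.2165, 3.436 and 0.1045.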

How the data were processed

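Polyadenylated RNA of sorted, pooled cells was sequenced without RNA amplification, per the labels' protocols. Per the submitters' processing notes, FastQC, TopHat 1.5.0 and Cufflinks were used on mm10 (no Cufflinks version is stated there). The authors deposited, per the file headers, FPKM with a lower and an upper limit, coverage (a signal of read depth per base), length and a status for each of 59120 UCSC transcripts. The deposited FPKM sum to 10160000000 to 10740000000 a library, and how the library term was set is not stated.

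Symbols came from GENCODE M21, matched ignoring strand by transcript ends (within 20 bases), span and length, and 51481 received one. Models of 200 bases or more, without mitochondrial and status HIDATA ones, were summed per symbol and divided by 8137. Limits were taken as 2 standard errors and combined in quadrature, so intervals cover counting and read assignment within a library only. They were not used where the status was FAIL. Every member at 10 scaled FPKM or more in a library is named with its 3 values; of other lists, the 3 genes of highest mean and the 3 of largest absolute ratio in each comparison may be named. The members and lists were chosen with earlier results of these data known. The ratio script was tested on simulated data. Promoter sequences are from RefSeq, GRCm38.p6. Python 3.11.15, pandas 2.3.3, numpy 2.4.6 and matplotlib 3.10.9 were used. Some results of the lists are not reported here.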

Additional observations from a re-analysis of the deposited data

How the results depend on the processing

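Each count was recomputed under 11 other settings and each median under 10. No paired analysis was possible because each group has 1 library. Of the 25 abundant members, no ratio past 2-fold changed sign in any setting, but 3 of 8 such ratios of Ngn3-TOMATO to Ngn3-negative fell within 2-fold in some setting (Esrra to -0.91, Nr2e3 to -0.76, Ppara to -0.92). So did 4 of 13 of GIP-GFP to Ngn3-negative (Nr1d2 to -0.87, Nr1i2 to -0.94, Rara to -0.85, Thrb to -0.91) and the single one between the reporter libraries, Pparg (to -0.72). Members at least 2-fold lower than Ngn3-negative numbered 9 (Ngn3-TOMATO) and 14 (GIP-GFP) as reported, 9 for GIP-GFP with a pseudocount of 5, and 1 for each past 4-fold. Members at least 2-fold higher, 2 and 1 as reported, numbered 0 for both with a pseudocount of 5, with a filter at 5 and past 4-fold. For Ngn3-TOMATO they numbered 1 under equal totals and with shared transcript ends, and for GIP-GFP 2 with the most abundant transcript alone. Between the reporter libraries the 2 lower members numbered 0 with a pseudocount of 5 and past 4-fold, 1 with a filter at 5, under equal totals and with shared ends, and 4 under the median ratio, while 3 were higher with the most abundant transcript alone. Against Ngn3-negative the median of members was -0.49 (Ngn3-TOMATO) and -0.67 (GIP-GFP) with a pseudocount of 5, -0.26 and -0.36 without a filter, and -0.87 and -1.08 under equal totals. Between the reporter libraries it was -0.07 without a filter, which adds genes at or near 0. The cause of the other shifts was not tested. Median ratio scaling shifted the all-gene median of Ngn3-TOMATO to Ngn3-negative by 0.12. With the most abundant transcript alone Nr1h4 had log2 ratios of -1.17, 1.06 and 2.23 in the 3 comparisons, because 1 of its models was used. Nr1i2 then stood at -1.82 and Nr2e3 at -2.59 for GIP-GFP against Ngn3-negative, and Nr2e3 at -1.43 between the reporter libraries, while a pseudocount of 5 put Nr2e3 at -1.13. Signs of differences under 2-fold changed in some setting for Rxrb, Nr2c2, Nr2f2 and Nr2f6 in Ngn3-TOMATO over Ngn3-negative, for Nr1h4, Ppara and Nr2c2 in GIP-GFP over Ngn3-negative, and for Nr2c2 between the reporter libraries. Low members such as Rarg, Rora and Nr0b2 rest on few reads, and GIP-GFP was the shallowest library.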
